A study of Mus musculus with 2 samples.

Results

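The Clcn5 intronic miRNA cluster is a group of miRNA genes inside the X-linked gene Clcn5, which encodes a chloride and proton exchanger of endosomes. The group was fixed by name as Mir188, Mir362, Mir500, Mir501, Mir532 and Mir660, and its rows were taken by Ensembl gene identifier from the miRNA gene tables. Of the 6 named genes, 5 had a matching row among the 1973 listed genes, and Mir660 was not analysed here. The libraries were microRNA-seq of skeletal muscle from mouse pups of strain B6NCrl on postnatal day 0, with an RNA size range under 30 bases. They came from 2 pups of 1 pregnancy, named replicate 1 (pup 1) and replicate 2 (pup 2). Sex was not collected, and no treatment or altered genotype was labelled. Both libraries belong to 1 group, so the study holds no contrast between conditions, and differences between pups cannot be told apart from differences in dissection or library preparation.

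A miRNA gene is transcribed as a hairpin that is cut into mature strands of about the length of the reads counted here. The mature strand guides a silencing complex to messenger RNAs mainly through its seed, bases 2 to 8 from its 5′ end, so miRNAs with the same seed can share targets. Intronic miRNAs such as these can be cut from the host gene's primary transcript. In mouse muscle regeneration, miR-501 has been described in activated satellite cells, the stem cells of muscle. In mouse bone marrow, miR-188 has been linked to the balance between bone and fat formation.

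The mature sequences of the group are shown because some of these genes share a seed. The 9 mature strands from RefSeq (GRCm38.p6), both strands of 4 genes and the 3p strand of Mir532, are printed 5′ to 3′ with the seed in capitals, and miR-532-5p is not shown.
miR-500-3p: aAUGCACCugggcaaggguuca
miR-501-3p: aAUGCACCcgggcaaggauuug
miR-362-3p: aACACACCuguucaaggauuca
miR-500-5p: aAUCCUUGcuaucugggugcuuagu
miR-362-5p: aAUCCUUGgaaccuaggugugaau
miR-501-5p: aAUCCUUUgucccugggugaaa
miR-188-5p: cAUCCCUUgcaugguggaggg
miR-188-3p: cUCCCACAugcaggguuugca
miR-532-3p: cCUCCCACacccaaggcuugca

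Among these strands, those of Mir500, Mir501 and Mir362 were the most alike. miR-500-3p and miR-501-3p have the same seed and differ at 4 of 22 positions, U9C, G18A, C21U and A22G, counted from the 5′ end with the base of miR-500-3p first. miR-362-3p and miR-500-3p differ at 5 of 22 positions, 2 of them in the seed. On the other arm miR-500-5p and miR-362-5p share a seed, and miR-501-5p differs from miR-362-5p within the seed only at its last base (G8U, with the base of miR-362-5p first). miR-188-3p and miR-532-3p have different seeds but share a run of 8 bases that starts 1 base further in miR-532-3p.

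The seeds of miR-500-3p with miR-501-3p and of miR-500-5p with miR-362-5p were found in no other of the 1679 mature miRNAs in the RefSeq table. The seed of miR-362-3p was also that of miR-329-3p, from a gene of the Dlk1-Dio3 region on chromosome 12, and the seed of miR-188-5p was also that of miR-7061-3p. The remaining 3 seeds occurred once each in the table.

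Mir500 and Mir501 are the most alike pair of hairpins in the group, shown next with their longest identical run of 14 bases in capitals. In Mir501 the run covers positions 17 to 30 and in Mir500 positions 14 to 27, which takes in the first bases of the 5p strand.
Mir501: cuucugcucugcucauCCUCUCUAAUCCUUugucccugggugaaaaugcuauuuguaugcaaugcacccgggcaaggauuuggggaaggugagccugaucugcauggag
Mir500: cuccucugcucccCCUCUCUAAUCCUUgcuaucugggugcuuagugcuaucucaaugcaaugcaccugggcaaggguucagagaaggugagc
Against 1004 other RefSeq hairpins, no member shared a longer run than this, and the longest runs of Mir188, Mir362 and Mir532 were 11, 11 and 12 bases. A whole mature strand of 21 to 25 bases was therefore not repeated in another of these hairpins.

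All 5 genes lie on the minus strand of chromosome X (mm10) inside Clcn5, which spans 7153810 to 7319358. In transcription order they are Mir532 (7248402 to 7248497), Mir188 (7247989 to 7248056), Mir362 (7241982 to 7242046), Mir501 (7241243 to 7241351) and Mir500 (7237683 to 7237774). GENCODE M21 places each of them in an intron, and in no exon, of 3 of the 5 Clcn5 transcripts. It is the same intron of 103648 bases for all 5 genes, and the other 2 transcripts start downstream of the cluster. The genes span 10815 bases in 2 subgroups. Mir532 and Mir188 are 345 bases apart, then 5942 bases follow before Mir362, which is 630 bases from Mir501, and Mir500 is 3468 bases further on. Of the 1894 listed genes with a place in GENCODE M21, no other lies in Clcn5.

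Own-strand counts in genes came to 3754895 for replicate 1 and 5133949 for replicate 2, and levels are given as CPM, counts scaled to a total of 1000000 per library. The tissue label was checked against 10 striated muscle miRNA genes, of which 9 were measured. Their share of counts was 8.13% in replicate 1 and 8.94% in replicate 2, mostly Mir206, and 8 of the 9 had at least 10 counts in both libraries. The other measured muscle genes varied widely. In replicates 1 and 2, Mir133b had 2556 and 4440 counts, Mir499 2150 and 3215, and Mir208b 2103 and 2912. Mir486 had 231 and 411 counts, Mir208a 32 and 68, and Mir133a-1 20 and 32. Mir1a-1 had 24 counts in replicate 1 and 46 in replicate 2, and Mir133a-2 had 4 and 6. Reads that map to several places are not counted. Genes known from other cell types were present too, and those of epithelium, skin and cartilage differed most between the libraries. All 7 epithelium and skin genes had counts in both, and together they came to 0.569% of replicate 1 and 0.0230% of replicate 2. The cartilage gene Mir140 held 0.654% in replicate 1 and 0.0966% in replicate 2. Endothelial Mir126a held 4.08% and 3.66%, the 4 measured white blood cell genes 0.0646% and 0.0458%, and the 2 red blood cell genes 0.0416% and 0.0299%. Mir142, the other gene of the white blood cell list, was not matched to a row and is not in that list's share. Its place had 852 CPM in replicate 1 and 599 CPM in replicate 2, counted opposite the listed gene Mir142b. Liver Mir122 held 0.0180% and 0.0185%. None of these measured marker genes was at 0 in both libraries.

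The 5 genes of the Clcn5 cluster were all detected in newborn muscle. Their summed share was 1.01% of own-strand gene counts in replicate 1 (95% interval 1.00 to 1.02, exact Clopper-Pearson) and 1.15% in replicate 2 (1.14 to 1.16), a mean of 1.08% ± 0.0930 (SD, n = 2). Each member had at least 1115 counts in each library, whereas 1320 of the 1973 genes in the tables were at 0 in both and 311 had 10 or more in both. Intervals cover counting error within a library only, and not variation between pups. The reads carry no molecular identifiers in these tables, so copies of a molecule cannot be told apart from separate molecules. In bulk tissue, fewer cells of a type and less RNA per cell cannot be told apart.

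Mir532 was the highest member, with 4858 CPM in replicate 1 (18241 counts, 95% Poisson interval 4788 to 4929) and 5700 CPM in replicate 2 (29265 counts, 5635 to 5766). Its mean of 5279 ± 596 CPM (SD, n = 2) placed it 38th of all listed genes, by counts that leave out multimapping reads. It alone made up 47.9% of the cluster's counts in replicate 1 and 49.7% in replicate 2.

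Mir188, its neighbour in the upstream subgroup, had 2572 CPM in replicate 1 (9656 counts) and 2713 CPM in replicate 2 (13930 counts). The mean was 2642 ± 100.2 CPM, the smallest relative spread of the 5 genes, with an SD of 3.79% of the mean. Mir188 ranked 58th in each library, by counts without multimapping reads. It held 25.3% and 23.7% of the cluster's counts in replicates 1 and 2.

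Mir501 had 1256 CPM in replicate 1 (4718 counts) and 1391 CPM in replicate 2 (7143 counts), a mean of 1324 ± 95.3 CPM. Mir500, its closest relative in sequence, had 1165 CPM in replicate 1 (4375 counts) and 1409 CPM in replicate 2 (7235 counts), a mean of 1287 ± 173 CPM. The order of these genes changed between the libraries. Mir501 had 1.08 times the counts of Mir500 in replicate 1 (95% interval 1.03 to 1.12, exact binomial) and 0.987 times in replicate 2 (0.955 to 1.02).

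Mir362 was the lowest member, with 297 CPM in replicate 1 (1115 counts) and 249 CPM in replicate 2 (1280 counts). Its mean was 273 ± 33.7 CPM, and it held 2.93% of the cluster's counts in replicate 1 and 2.17% in replicate 2. It was the only member whose CPM was lower in replicate 2 than in replicate 1. None of the 5 genes had an opposite-strand count in either library, which allows up to 0.799 CPM in replicate 1 and 0.584 CPM in replicate 2.

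**Figure D1:**
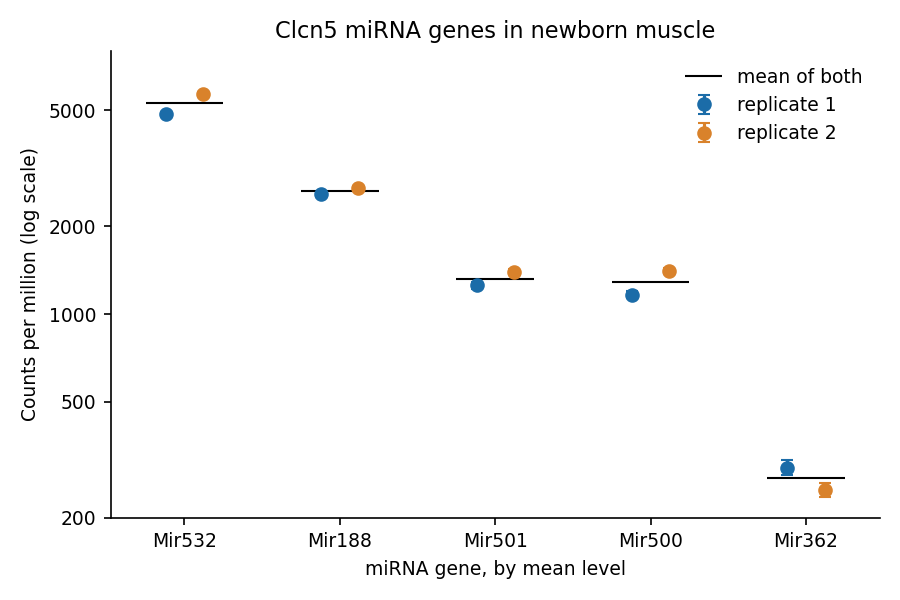
Level of each Clcn5 miRNA gene in CPM on a log scale, with replicate 1 in blue and replicate 2 in orange. Error bars are 95% Poisson intervals (most are smaller than the points) and black lines are means. Mir532 and Mir188 lie above the other members in both libraries, Mir501 and Mir500 overlap, and Mir362 is lowest.

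The order of levels was therefore Mir532, Mir188, then Mir501 with Mir500, then Mir362. Mir532 was 1.99 ± 0.150 times Mir188, Mir188 was 2.00 ± 0.0682 times Mir501, and Mir500 was 4.79 ± 1.22 times Mir362 (ratios of counts, SD over n = 2). Of the 4 neighbouring pairs in this order, Mir501 and Mir500 overlapped between libraries and the other 3 did not. No exact permutation test over 2 libraries can reach the threshold of 0.05, so no test was run and these orders are descriptions. A read here covers a whole mature strand, so counts do not grow with the length of the hairpin, but a scale per length was also computed. Per 100 bases of annotated hairpin, Mir532 had 5499 CPM, Mir188 3886, Mir500 1399, Mir501 1215 and Mir362 420, which exchanges the places of Mir500 and Mir501 and keeps the others.

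Levels were also set against position and seed. Mir532 and Mir188, the first genes in transcription order, were the highest members, whereas Mir362, which follows them, was the lowest and Mir501 and Mir500 came between. Mir501 lies 630 bases from Mir362 and had 4.23 times its counts in replicate 1 and 5.58 times in replicate 2. By seed, the genes that carry AUGCACC (Mir500 and Mir501) summed to 2422 CPM in replicate 1 and 2801 CPM in replicate 2. The genes that carry AUCCUUG (Mir500 and Mir362) summed to 1462 CPM in replicate 1 and 1659 CPM in replicate 2. Counts are per gene and do not separate the 5p from the 3p strand, so these sums count both strands of each gene and are not levels of a seed.

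**Figure D2:**
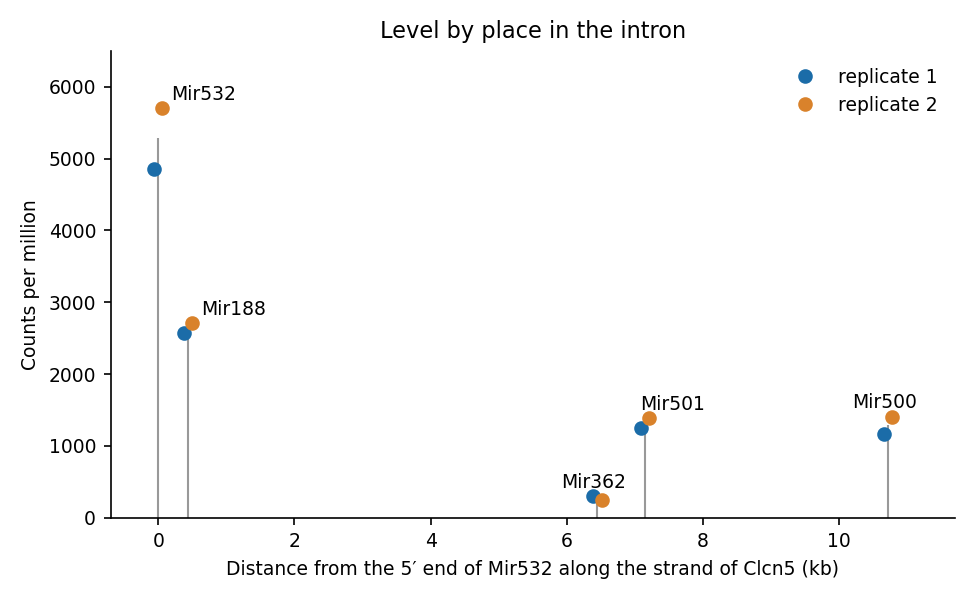
CPM of the 5 genes against distance, in kilobases along the strand of Clcn5, from the 5′ end of Mir532. Blue points are replicate 1, orange points replicate 2, and grey stems reach the mean. The pair at the left, Mir532 and Mir188, is higher than the 3 genes further along the intron, and Mir362 is lowest at 6451 bases.

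The 2 libraries differed little in this cluster, with a common direction in 4 of the 5 genes. Ratios were taken as log2 of replicate 1 over replicate 2 with TMM scaling, so a negative value means lower in replicate 1. Mir500 had a log2 ratio of -0.41 (95% counting interval -0.46 to -0.35), Mir532 -0.36 (-0.39 to -0.34), Mir501 -0.28 (-0.33 to -0.23) and Mir188 -0.21 (-0.25 to -0.17). Mir362 went the other way at 0.12 (0.0035 to 0.24).

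An exact two-sided binomial test on the reads, with Benjamini-Hochberg adjustment over all 373 genes with at least 10 counts in total, compared these libraries beyond counting error and not any conditions. Adjusted p was 1.56e-157 for Mir532, 6.53e-49 for Mir500, 2.79e-27 for Mir188, 2.19e-24 for Mir501 and 0.0812 for Mir362. Thus 4 of 5 members were lower in replicate 1 beyond counting error, against 25.7% of all tested genes, and 0 of 5 were higher, against 23.3%. These shares are not matched for depth. Each member had at least 1115 counts in each library, whereas tested genes with few counts can pass only at larger ratios. Mir362 was higher at an unadjusted p of 0.0418 in the same exact binomial test. With the 2-fold minimum added, 0 of 5 members were called, against 5.09% of all tested genes. The members lie in 1 intron and are not independent.

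The sizes were within the range seen for most genes. Over the 311 genes that reached 10 counts in each library, the quartiles of the log2 ratio were -0.28 and 0.27, and 296 genes differed by less than 2-fold. Mir188, Mir362 and Mir501 lay between these quartiles, while Mir532 and Mir500 lay below them but above the fifth percentile of -0.51. The median of the 5 members was -0.28, beside -0.0059 for all tested genes. Total-count scaling in place of TMM shifts every ratio up by 0.13, and with it Mir188 was at -0.077 and Mir362 at 0.25, now past the threshold. Of the measured striated muscle genes, 6 of 9 were lower in replicate 1 beyond counting error, with Mir206 at -0.27 and a list median of -0.35. All 7 epithelium and skin genes and Mir140 were higher in replicate 1, with a list median of 4.13 for the 7 and 2.63 for Mir140. Whether these marker differences had a part in the members' ratios was not tested.

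**Figure D3:**
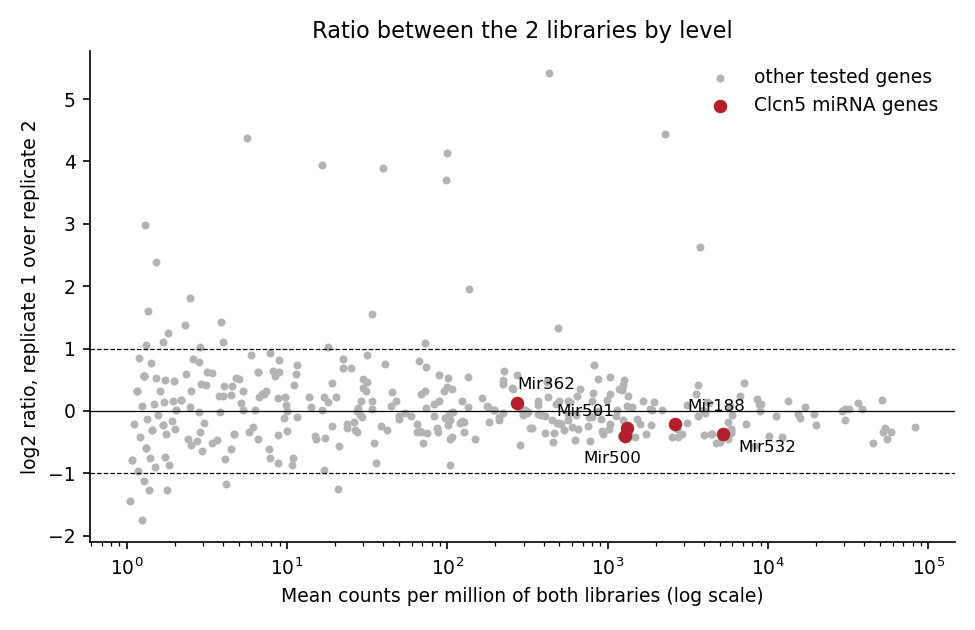
Log2 ratio of replicate 1 over replicate 2 against mean CPM (log scale) for 373 tested genes. Red points are the 5 Clcn5 miRNA genes, grey points the other tested genes, and dashed lines mark 2-fold. All 5 members lie within 2-fold, 4 of them below 0.

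On the X chromosome, the cluster was among the larger sources of miRNA counts. It held 13.8% of the counts of the 120 listed X-linked genes in replicate 1 and 16.8% in replicate 2. By mean CPM, Mir532 was the third of these genes after Mir322 and Mir351, both of the Mir322 cluster, which is linked to myoblast differentiation. Of the 7 genes fixed for that cluster, the 5 matched by name held 5.04% of all counts in replicate 1 and 4.50% in replicate 2. The Clcn5 cluster thus summed to 0.201 and 0.255 times as much. Mir450a-1 and Mir450a-2 were not matched by name. The X-linked genes listed as Mir450-1 and Mir450-2, with means of 96.8 and 64.7 CPM, were not in that sum. The ranges of both sums did not overlap.

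Against miRNA genes in introns of X-linked protein-coding genes, Mir532 was the highest and the cluster held about as much as all the others together. The annotation gives 36 such genes, 16 of which had at least 10 counts in both libraries, all 5 members among them. The Clcn5 genes made up 46.7% of the counts of the 36 in replicate 1 and 52.2% in replicate 2. The 31 others held 1.16% of all counts in replicate 1 and 1.05% in replicate 2, so the sums changed order between the libraries. Mir652 in Tmem164 had 4052 ± 183 CPM, below both libraries of Mir532, and Mir98 in Huwe1 had 3123 ± 334 CPM, above both libraries of Mir188. Mirlet7f-2 in Huwe1 (1335 ± 243 CPM), which has a mature sequence made from several loci, overlapped Mir501 and Mir500. Multimapping reads are not counted, which can lower Mirlet7f-2, its rank and the sum of the 31 others. Mir361 in Chm (1135 ± 29.0 CPM) and Mir676 in Eda (1019 ± 76.5 CPM) were below Mir501 in both libraries, and Mir224 in Gabre, with 265 and 178 CPM in replicates 1 and 2, overlapped Mir362. Per 100 bases of hairpin Mir532 remained the highest of the 36, but Mir188 at 3886 CPM was then above Mir98 at 2891 CPM, and Mir361 at 1621 CPM was above Mir500 and Mir501.

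**Figure D4:**
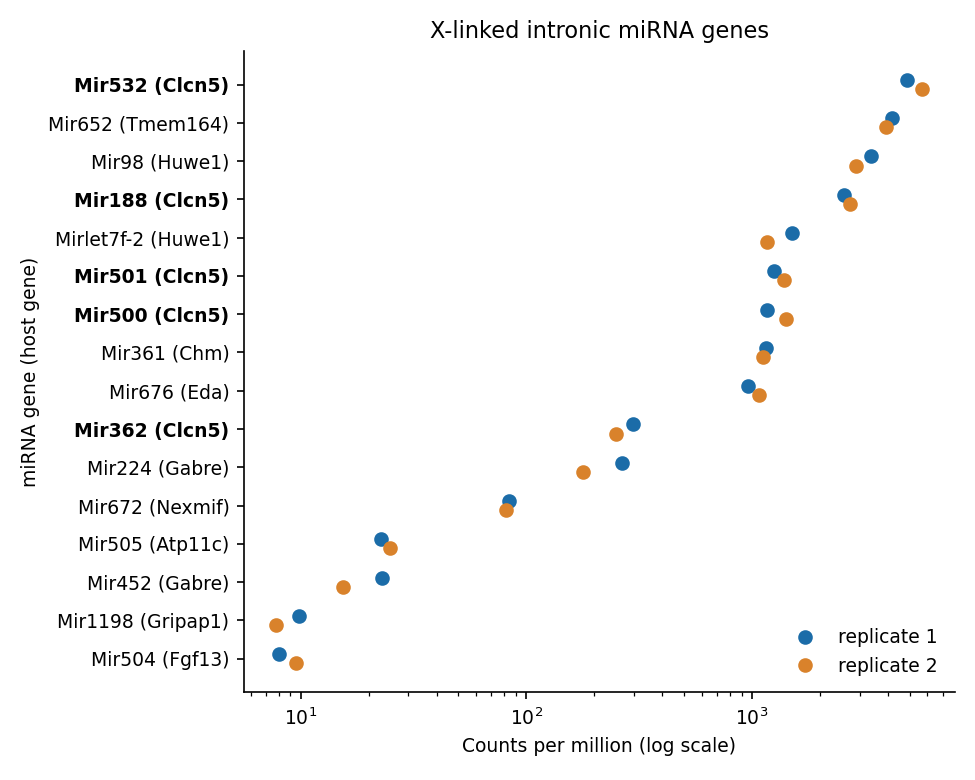
CPM (log scale) of the 16 miRNA genes in introns of X-linked protein-coding genes with 10 or more counts in each library, with the host gene in brackets and Clcn5 genes in bold. Blue points are replicate 1 and orange points replicate 2. Mir532 is highest in both libraries, and Mir362 is the lowest of the 5 Clcn5 genes.

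Mir501 was set beside other miRNA genes linked to muscle stem cells, since that is where it has been described in mice. Of 6 such genes, 5 were matched to a row, and they accounted for 0.157% of counts in replicate 1 and 0.0884% in replicate 2. Mir497, the other gene of the list, is not in that sum. Its place had 671 CPM in replicate 1 and 535 CPM in replicate 2, counted opposite the listed gene Mir497b. Mir489, known from quiescent satellite cells, had 9 and 10 counts in replicates 1 and 2, and Mir653, from the same locus, had 25 and 56. Mir31, which acts on Myf5 messenger RNA in satellite cells, had 47.7 CPM in replicate 1 and 41.1 CPM in replicate 2. Mir195a had 678 ± 157 CPM, and Mir708 had 723 CPM in replicate 1 and 263 CPM in replicate 2. Mir501 was above each of these 5 genes in both libraries, on the CPM scale and per 100 bases. Mir221 and Mir222, an X-linked pair linked to myoblast proliferation, lay below every Clcn5 gene in both libraries, with 66.9 ± 29.6 and 29.9 ± 7.37 CPM.

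The genes nearest to Mir501 in level over the 2 libraries, by Euclidean distance in log2(CPM + 1), were Mir329 at a distance of 0.0337, Mir673 at 0.0853 and Mir500 at 0.110. Mir329 had 1254 CPM in replicate 1 and 1424 CPM in replicate 2, and Mir673 had 1240 CPM in replicate 1 and 1474 CPM in replicate 2. Both lie on chromosome 12, and 2 libraries of 1 group give only likeness in level, not in profile. Mir329 is also the gene whose 3p strand shares its seed with miR-362-3p. It had 4708 and 7311 counts in replicates 1 and 2, against 1115 and 1280 counts of Mir362.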

How the data were processed

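The authors deposited, library by library, whole-number read counts per miRNA gene on build mm10 with annotation M4, per the deposited file descriptions; the aligner and counter are not given in the sources used here. The 3 count columns have no header. The other 2 add up to the first in every gene, so they were read as either strand, own strand and opposite strand. The own-strand column was used. The 4 lines that name no gene stayed out of library sizes: multimapping reads were 30.2% and 29.9% of all reads in replicates 1 and 2, unmapped reads 9.66% and 10.1%, and reads without a gene on their strand 7.56% and 8.44%. Multimapping reads are not in the gene counts, which can lower genes that share sequence. Gene names and places came from GENCODE M21 by identifier (1894 of 1973 matched; the other 79 had at most 1 count each).

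CPM used the own-strand gene total. Ratios used TMM factors of edgeR 4.0.16 (1.05 and 0.955) (R 4.3.3), after adding 0.5 to both counts of a gene. Exact binomial tests, Poisson and Clopper-Pearson intervals used scipy 1.17.1, with a threshold of 0.05 and a 2-fold minimum. The binomial test was run on simulated Poisson counts, which check the code only and hold no variation between pups. The libraries were not copies (chi-square 161 times its degrees of freedom). The biological coefficient of variation over 373 genes was 0.319. DESeq2 1.42.0 size factors were 1 of the alternatives. The named genes were all members, the 3 genes nearest to Mir501 and the fixed lists. Members and lists were chosen with earlier results of these data known.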

Additional observations from a re-analysis of the deposited data

Results flagged for a closer look

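Counts on the strand opposite a listed gene were not used above, except where values are given for the places of Mir497 and Mir142. Over all listed genes they made up 9.97% of both-strand counts in replicate 1 and 11.4% in replicate 2. None was found at the Clcn5 genes, but elsewhere some exceeded the 3 counts that a count of 0 allows in at least 1 library. The first are 3 genes of the fixed lists that were not matched to a row, whose places carry counts opposite another listed gene. Counts at the place of Mir497, a muscle stem cell list gene, averaged 603 CPM opposite Mir497b, those of Mir142 averaged 726 CPM opposite Mir142b, and those of Mir1a-2 averaged 14.9 CPM opposite Mir1b. At 4 list genes that were matched to a row, opposite-strand counts averaged 5.39 CPM for Mir486, 4.52 CPM for Mir126a, 4.21 CPM for Mir203 and 0.825 CPM for Mir708.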

How the results depend on the processing

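Alternatives were run on the 5 members' levels, their summed share, the share of Mir532 among them, their ratios and the count of all called genes. CPM over all reads gave 2749 for Mir532, 1376 for Mir188, 689 for Mir501, 670 for Mir500 and 142 for Mir362, and a summed share of 0.563%, because the denominator grows. The both-strands column gave 4711 CPM for Mir532, 2359 for Mir188, 1182 for Mir501, 1149 for Mir500 and 244 for Mir362. With that column the share was 0.964%. Leaving Mir206 out of the total gave 5761 CPM for Mir532, 2883 for Mir188, 1445 for Mir501, 1405 for Mir500 and 298 for Mir362. With that total the share was 1.18%. Without the 2-fold minimum 183 genes passed in place of 19, and under other scalings, columns and count filters 13 to 22 did, with 13 where at least 50 counts were required. No log2 ratio of a member changed sign under the 7 alternatives, and no member reached 2-fold. Leaving out either replicate gives the other library's value, from 1.01% to 1.15% for the share, which with 2 libraries always lies within 1 SD. No paired analysis was possible because the labels give a single group. Depth limited Mir362 most, at 1115 counts.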
